A study of Mus musculus with 9 samples.

Results

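Matricellular glycoproteins are secreted proteins that sit in the extracellular matrix and act on cells through integrins and other receptors, as thrombospondins, tenascin C, periostin, SPARC, follistatin-like 1 and osteopontin do. Fibronectin and fibrillin 1, described here with them, are structural glycoproteins that build the fibrils to which many of the others bind. In the brain after injury several of these genes are known to be induced in glia and in cells of the vessel wall, and TGF-beta is a known inducer of several of them in fibroblasts. The 10 genes Thbs1, Thbs2, Thbs3, Tnc, Postn, Sparc, Fstl1, Spp1, Fn1 and Fbn1 were taken by gene symbol from a table of 54134 entries, and each was found once. They were chosen by matrix function with their measured levels and fold changes in all comparisons of these libraries already known, so the values below are a description, and whether a gene passed the threshold is stated without a p-value.

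RNA was sequenced from cells labelled HT22, a mouse hippocampal neuronal line, of wild-type genotype, with HT-4 written as the cell type. All cells grew in DMEM with fetal bovine serum and antibiotics. The 3 control libraries came from cells without any intervention, the 3 Hb libraries from cells given oxyhemoglobin, the oxygen-carrying protein set free when red cells lyse in a hemorrhage, and the 3 Hb+NTR1 libraries, titled ganyu in the labels, from cells given oxyhemoglobin and NTR1. The series title names the agent NGR1, dose and duration were not found in the labels, and no group received the agent alone. Separate cultures are not mentioned for the replicates, so every call rests on the spread between these libraries alone, and that spread may be technical.

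Library totals were 14369813 to 16893746 counts for control, 13415648 to 14728662 for Hb and 13945507 to 14280053 for Hb+NTR1. CPM here is a count scaled to library size. Among 20 neuronal markers, 15 were under 1 CPM in control, and Map2, Snap25 and Slc17a6 were at 0 in all libraries. Those above 1 CPM were Dlg4 (mean 70.2 CPM in control), Ncam1 (68.3), Tubb3 (32.6), Syn1 (24.7) and Camk2a (3.66). By contrast, just 2 of 12 fibroblast markers, Lum and Fap, were under 1 CPM in control. The neuronal label thus goes against most of these markers. Summed fibroblast markers spanned 17417 to 18360 CPM in control, 14638 to 15920.0 CPM in Hb and 2974 to 3098 CPM in Hb+NTR1. This sum moved with most of the genes described here, and its part in the results was not tested. Most of it was Col1a2 (mean 9098 CPM in control), Col1a1 (3624), Vim (2887) and Col3a1 (1547). The markers did not all follow their sum. Col3a1 went up to a mean of 1771 CPM in Hb, and Pdgfra went only from 78.8 CPM in Hb to 64.9 CPM in Hb+NTR1. Fewer cells of a type and less RNA per cell cannot be told apart in bulk libraries. The level of 5 of 6 macrophage and microglia markers was under 1 CPM in control, and their sum of 44.6 to 47.6 CPM in Hb+NTR1 was nearly all Cd68 (mean 45.1 CPM), with Tyrobp at 0 in every library. Among 7 astrocyte markers 6 lay under 1 CPM in control, with Aqp4 and Gjb6 at 0 in every library and the sum, nearly all Slc1a3, at 199.6 to 229 CPM in control, 115 to 138 CPM in Hb and 8.63 to 10.04 CPM in Hb+NTR1. The neuronal markers summed to 198 to 206 CPM in control, 191 to 208 CPM in Hb and 131 to 135 CPM in Hb+NTR1. The part of these markers in the results was not tested.

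Gene counts carry no sequence, so the promoters of 3 of the genes are shown for context. Postn and Tnc are shown because they fell with oxyhemoglobin and further with NTR1, and Fstl1 because it fell and then rose. RefSeq promoters on GRCm38.p6, from 250 bases before to 50 bases after an annotated start, were found for 8 of the 10 genes, not for Thbs1 and Fn1. Both strands were searched for the AP-1 motif, whose letters are TGANTCA. The TEAD motif was searched as the letters CATTCC. For SMAD factors the letters searched were CAGACA. The TATA box was searched in the same way as TATAAA. Matches are in capitals, and no match overlaps another. The Postn window is chr3:54360857-54361156 on the plus strand, the Tnc window chr4:64046966-64047265 on the minus strand and the Fstl1 window chr16:37776805-37777104 on the plus strand.
Postn: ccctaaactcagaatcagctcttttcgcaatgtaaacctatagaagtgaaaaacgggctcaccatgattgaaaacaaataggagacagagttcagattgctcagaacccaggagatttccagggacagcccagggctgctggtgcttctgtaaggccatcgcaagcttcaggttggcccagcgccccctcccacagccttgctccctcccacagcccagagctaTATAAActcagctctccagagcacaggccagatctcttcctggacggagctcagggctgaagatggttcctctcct
Tnc: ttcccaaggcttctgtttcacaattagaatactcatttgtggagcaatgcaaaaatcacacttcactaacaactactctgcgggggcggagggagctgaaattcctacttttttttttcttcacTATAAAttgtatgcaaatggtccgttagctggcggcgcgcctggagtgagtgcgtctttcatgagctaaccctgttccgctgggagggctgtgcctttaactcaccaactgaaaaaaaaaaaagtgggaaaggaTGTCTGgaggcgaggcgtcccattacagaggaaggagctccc
Fstl1: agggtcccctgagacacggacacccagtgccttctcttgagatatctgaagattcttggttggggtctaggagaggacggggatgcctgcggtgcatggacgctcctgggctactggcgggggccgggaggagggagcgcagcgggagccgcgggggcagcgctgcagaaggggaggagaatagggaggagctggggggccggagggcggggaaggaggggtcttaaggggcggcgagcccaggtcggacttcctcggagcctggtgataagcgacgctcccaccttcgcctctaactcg
Postn had a TATAAA that began 26 bases before the start, and Tnc had a TATAAA that began 126 bases before it and a CAGACA on the opposite strand (TGTCTG as printed) 8 bases into the transcript. Fstl1 held none of the 4 motifs in a window with 66.7% G and C, against 53.0% for Postn and 47.3% for Tnc. Fbn1, which also fell at both steps, likewise held none of the 4 motifs, at 60.3% G and C, and nor did the other Postn window. Sparc and Spp1 fell at both steps too. Sparc held CAGACA but no TATAAA, and Spp1 held both in 1 window and neither in the other. Whether motifs or G and C content relate to the changes was not tested. Over all 11 windows of the 8 genes (Postn, Tnc and Spp1 have more than 1 start), CAGACA and TATAAA were each found in 5 windows, and in 21.04% and 13.6% of the 32851 mouse windows. The Tnc windows overlap, so the same TATAAA and the same TGTCTG were counted in both. By gene, each of these motifs was found in 4 of the 8. TGANTCA and CATTCC were found in 0 of the 11, and in 7.81% and 14.7% of all windows. A match is a run of letters, not a known binding site, and which start the cells use was not determined here.

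**Figure D1:**
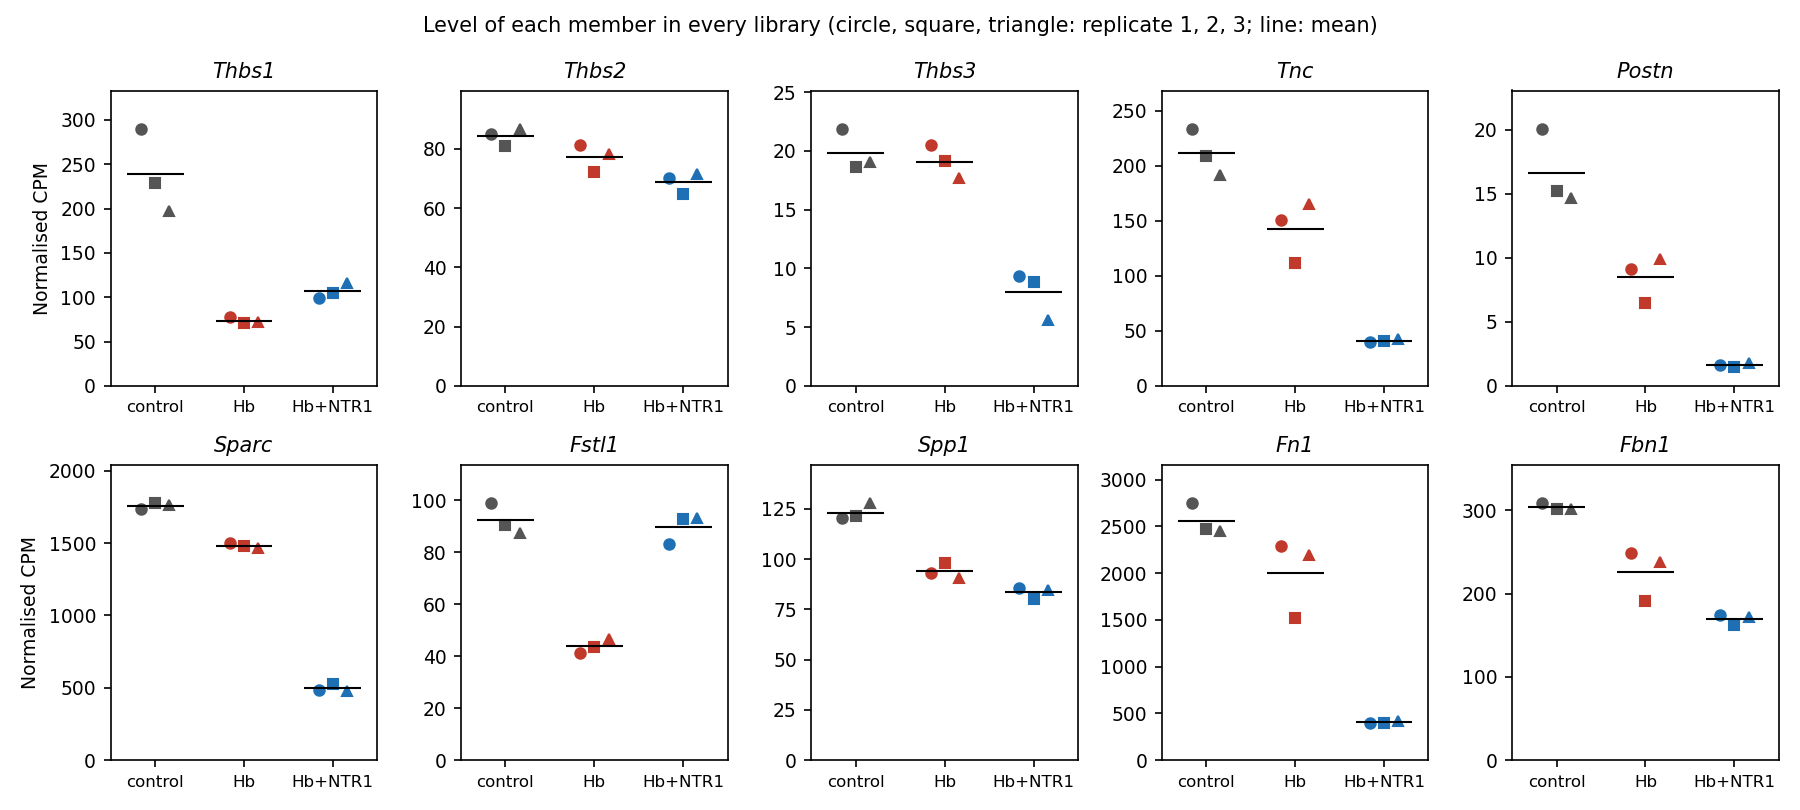
Normalised CPM (vertical axis, from 0) of each of the 10 genes in the 3 libraries of control, Hb and Hb+NTR1, with symbols for replicate 1, 2 and 3 and a line at the group mean. Thbs1 and Fstl1 are lowest in Hb, Thbs2 and Thbs3 overlap between control and Hb, and the other 6 step down from control to Hb to Hb+NTR1.

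Levels are normalised CPM, scaled between libraries by TMM, and the order of the genes is given per kilobase of annotated exon. In control Sparc was the most abundant per kilobase, at 464 ± 5.38 CPM per kb (SD, n = 3), followed by Fn1 at 219 ± 14.3, Spp1 at 74.7 ± 2.46 and Thbs1 at 39.3 ± 7.73 CPM per kb. Tnc at 27.2 ± 2.71 and Fbn1 at 25.04 ± 0.326 CPM per kb did not differ beyond their spread, and Fstl1 at 18.8 ± 1.19, Thbs2 at 12.03 ± 0.422, Thbs3 at 4.11 ± 0.365 and Postn at 1.91 ± 0.340 CPM per kb came below them. With Hb Thbs1 and Fstl1 took lower places. Thbs1 at 12.1 ± 0.545 CPM per kb lay near Thbs2 (11.03 ± 0.661), and Fstl1 at 8.92 ± 0.515 CPM per kb lay under Thbs2, above which it stood in control. Tnc (18.3 ± 3.58) and Fbn1 (18.6 ± 2.4996) again overlapped. With Hb+NTR1 Sparc remained first at 131 ± 6.36 CPM per kb, but Spp1 (50.7 ± 1.73) lay above Fn1 (34.7 ± 0.798), Fstl1 (18.3 ± 1.17) and Thbs1 (17.5 ± 1.44) were not separated beyond their spread, and Tnc (5.29 ± 0.198) stood under Thbs2 (9.83 ± 0.512). Exon length covers all annotated transcripts of a gene, so genes with long exons that the cells do not use are understated. Exons of Fbn1 share 2442 bases with Gm9913 on the opposite strand, and those of Spp1 share 309 bases with Gm42793 on the same strand. Gm9913 had a mean of 0.110 CPM over all libraries and Gm42793 0.448 CPM. Overlaps on the opposite strand were also annotated for Thbs1, Thbs3, Tnc and Fn1. The part of these overlaps in the levels was not tested.

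**Figure D2:**
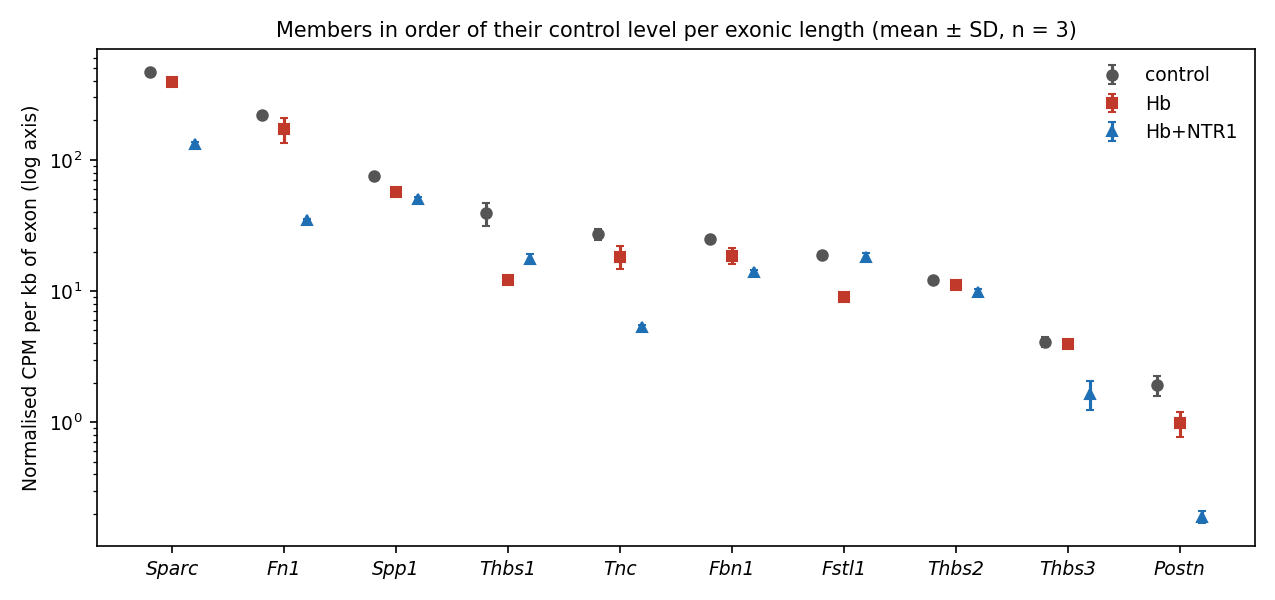
Level of each gene per kilobase of annotated exon (normalised CPM per kb, log axis), mean with SD of 3 libraries for control, Hb and Hb+NTR1, in order of the control mean. Sparc leads in all 3 groups, at 464, 391 and 131 CPM per kb, and Postn is last, at 1.91, 0.979 and 0.189 CPM per kb.

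As a share of all counts the 10 genes summed to 0.527% ± 0.0257 for control, 0.418% ± 0.0516 for Hb and 0.150% ± 0.00123 for Hb+NTR1 (SD, n = 3). Fn1 and Sparc made up 79.2 to 80.4% of this sum in control libraries, 83.03 to 84.02% in Hb and 60.4 to 62.4% in Hb+NTR1. The share of the members' counts that was Fn1 alone went from 46.5 to 48.5% in control to 27.1 to 28.1% in Hb+NTR1.

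**Figure D3:**
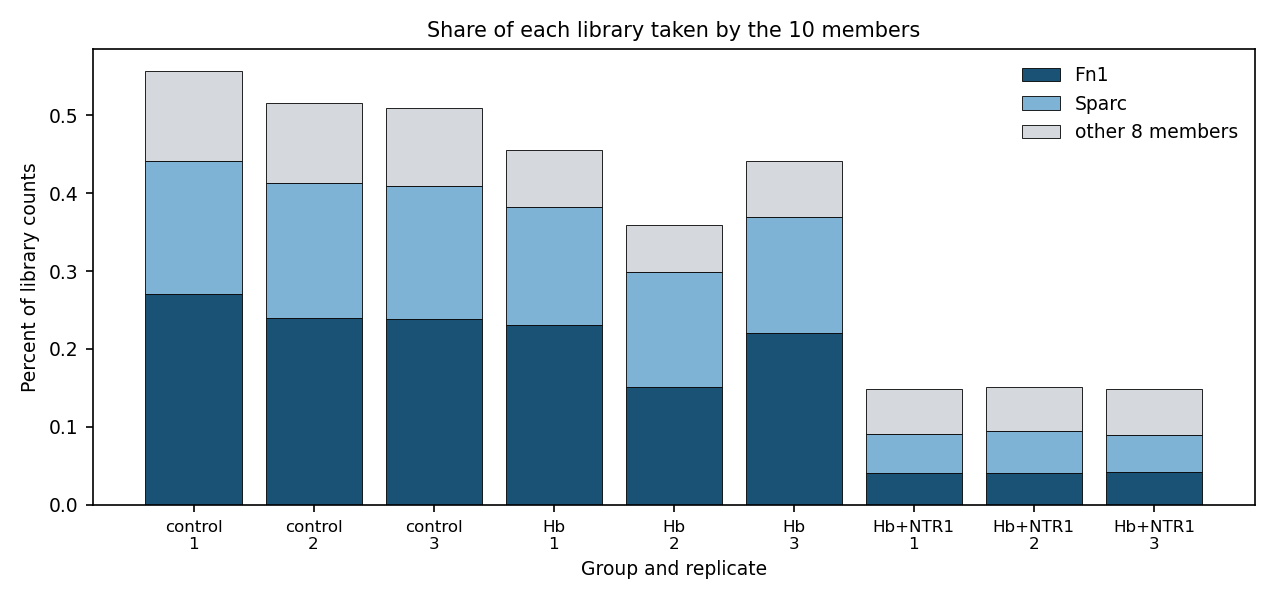
Share of each library's counts (percent, from 0) taken by Fn1, by Sparc and by the other 8 genes, 1 bar per library. The bars reach 0.509 to 0.557% in control, 0.359 to 0.455% in Hb, with Hb replicate 2 the lowest, and 0.149 to 0.151% in Hb+NTR1.

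Oxyhemoglobin was compared with no intervention, and NTR1 with oxyhemoglobin alone, by the quasi-likelihood test of edgeR across all 13810 genes that passed a filter on low counts, with a threshold of 0.05 on the Benjamini-Hochberg adjusted p. All 10 genes passed the filter. In Hb against control 7 of the 10 were called lower and 0 higher, where 3.65% of all tested genes were called, 1.77% lower and 1.88% higher. For 8 of the 10, all Hb libraries lay under all control libraries, as for 10.0% of all tested genes, and for 0 of the 10 they lay above, as for 9.51%. In Hb+NTR1 against Hb 8 were called lower and 2 higher, where 62.3% of all genes were called, 31.6% lower and 30.7% higher, and the libraries of all 10 were separated in the direction of the call, as for 32.3% (lower) and 32.4% (higher) of all genes. In Hb+NTR1 against control 9 were called lower and 0 higher, where 63.6% of all genes were called, 32.2% lower and 31.4% higher. Those 9 were lower without overlap, as 35.1% of all genes were, and 0 were higher without overlap, as 34.8% were. Since the genes were chosen with these comparisons known, nothing is read from these counts. Median log2 fold changes of the 10 were -0.41, -0.84 and -1.24 in the order just given, beside medians over all genes of 0.00, -0.01 and -0.0042. These comparisons share libraries, so they are set side by side and not counted against each other. Over all genes, the 504 calls of Hb against control became 315, 285 or 286 when control replicate 1, 2 or 3 was left out, and 1125 when Hb replicate 2 was. Of the 10 genes, 6 were called when control replicate 1, 2 or 3 or Hb replicate 3 was left out, and 8 when Hb replicate 2 was.

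**Figure D4:**
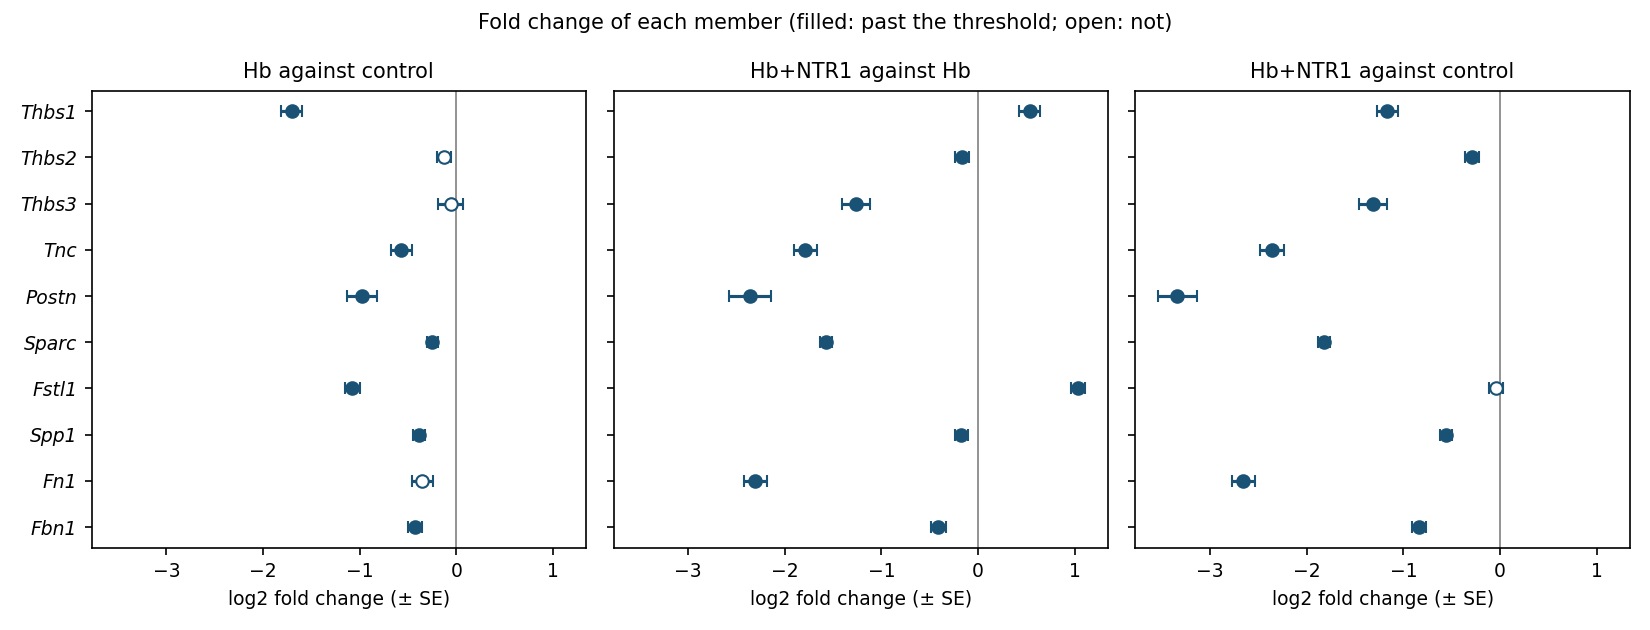
Log2 fold change with its SE for each gene in the 3 comparisons, with filled points past the adjusted p of 0.05 and open points not. Thbs1 and Fstl1 lie left of 0 in Hb against control and right of 0 in Hb+NTR1 against Hb, and Postn reaches the lowest value, -3.34, in Hb+NTR1 against control.

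Thrombospondins are secreted multimers that bind CD47, integrins and other matrix proteins, and thrombospondins 1 and 2, which form trimers, inhibit the growth of blood vessels, while thrombospondin 1 also activates latent TGF-beta. Thbs1 (chr2:118111876-118127133, plus strand, GRCm38) had 289.6, 229 and 197 CPM in the control libraries, 77.3, 71.3 and 71.7 CPM in Hb and 98.6, 105 and 116 CPM in Hb+NTR1. No library of one group reached into another, and the 3 control libraries were spread far more widely than the 3 Hb libraries, with coefficients of variation of 19.7% and 4.50%. Thbs1 fell 3.25-fold with Hb (log2 fold change -1.70 ± 0.11, SE) and rose 1.45-fold when NTR1 was added (0.54 ± 0.11). With both agents it was still 2.24-fold lower than in control (-1.16 ± 0.11). Over the alternative settings, Hb against control stayed between -1.82 and -1.52 for Thbs1.

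Thbs2 and Thbs3 did not follow Thbs1. Thbs2 (chr17:14665500-14694235, minus strand) had 85.1, 81.0 and 86.7 CPM in control, 81.2, 72.2 and 78.4 CPM in Hb and 70.2, 64.8 and 71.5 CPM in Hb+NTR1. The first 2 groups overlapped by 1 library, and Hb+NTR1 lay under both. Its log2 fold change was -0.13 ± 0.071 with Hb, which did not pass, and -0.17 ± 0.072 for added NTR1, which passed narrowly and was lost under 10 of the alternative settings, among them DESeq2 (-0.16) and each leaving-out of a library other than Hb replicate 2. Against control, Hb+NTR1 was lower by a log2 of -0.29 ± 0.071 for Thbs2, and this passed. Thbs3, a pentamer-forming relative expressed in cartilage and other tissues (chr3:89215180-89226837, plus strand), had 21.9, 18.6 and 19.0 CPM in control, 20.5, 19.1 and 17.7 CPM in Hb and 9.39, 8.85 and 5.64 CPM in Hb+NTR1. Control and Hb were interleaved (log2 fold change -0.057 ± 0.13), and the 3 Hb+NTR1 libraries lay apart below them (-1.26 ± 0.15 against Hb). Hb+NTR1 replicate 3 was the lowest of its group, at a log2 of -0.50 from the group mean for Thbs3. Without it the value against Hb was -1.06, and without Hb+NTR1 replicate 1 it was -1.39, and both passed. Exons of Thbs3 share 318 bases with Mtx1 on the opposite strand, and no strand setting of the counting was found in the labels. Mtx1 had 15.8 ± 1.24 CPM in control, 19.1 ± 2.66 CPM in Hb and 19.1 ± 0.790 CPM in Hb+NTR1.

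Tenascin C is a large hexameric glycoprotein of healing and developing tissue that loosens adhesion to fibronectin, and periostin is an integrin ligand that binds tenascin C and collagen. Tnc (chr4:63959785-64047015, minus strand) had 233, 209 and 191 CPM in control, 151, 111 and 165 CPM in Hb and 39.8, 40.7 and 42.8 CPM in Hb+NTR1. The groups stepped down without overlap, with Hb replicate 2 the lowest of its group. Tnc was called lower in both steps, with log2 fold changes of -0.57 ± 0.11 for Hb and -1.79 ± 0.12 for added NTR1. When control replicate 1 and Hb replicate 2 were both removed the Hb value shrank to -0.34 and still passed for Tnc. Postn (chr3:54361109-54391037, plus strand) was the least abundant of the 10, with 20.1, 15.2 and 14.7 CPM in control, 9.11, 6.49 and 9.94 CPM in Hb and 1.64, 1.48 and 1.81 CPM in Hb+NTR1, the last from 24, 21 and 26 counts. It was again lower at each step with no overlap, by a log2 of -0.97 ± 0.16 for Hb and -2.36 ± 0.22 for added NTR1. From control to Hb+NTR1 this was a 10.1-fold fall, the largest among the 10 genes. The authors' deposited table of Hb+NTR1 against control lists Tnc at a log2 fold change of -2.36, Postn at -3.34 and Fn1 at -2.66, and no other gene of the 10, in a table in which every gene has an absolute log2 fold change above 2.

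SPARC, also called osteonectin, is a collagen-binding glycoprotein that chaperones collagen deposition, and follistatin-like 1 shares a follistatin-type and a calcium-binding domain with it and modulates BMP and TGF-beta signalling. Sparc (chr11:55394500-55423183, minus strand) had 1736, 1776 and 1763 CPM in control, 1498, 1479.6 and 1469 CPM in Hb and 485, 524 and 479.7 CPM in Hb+NTR1. The libraries of a group lay close together in control and in Hb, with coefficients of variation of 1.16% and 1.00%, and the groups were far apart by comparison. With Hb Sparc changed by a log2 of -0.25 ± 0.060, a call lost without control replicate 1, 2 or 3 or without Hb replicate 3, though the value stayed between -0.26 and -0.21 over the alternatives. With NTR1 added Sparc fell a further 2.99-fold (-1.58 ± 0.062). Fstl1 (chr16:37776873-37836514, plus strand) had 98.8, 90.6 and 87.5 CPM in control, 41.4, 43.7 and 46.4 CPM in Hb and 83.1, 92.8 and 93.3 CPM in Hb+NTR1. The Hb libraries stood alone, and those of control and Hb+NTR1 were interleaved. Fstl1 fell 2.11-fold with Hb (-1.08 ± 0.077) and rose 2.05-fold with added NTR1 (1.03 ± 0.077), so that Hb+NTR1 and control differed by a log2 of -0.042 ± 0.073, which did not pass. That last difference had either sign over the alternatives, from -0.078 to 0.021 for Fstl1.

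Osteopontin, the product of Spp1, is a phosphorylated ligand of integrins and CD44 that is made by bone cells, macrophages and injured tissue. Spp1 (chr5:104435118-104441050, plus strand) had 120.4, 121 and 128 CPM in control, 93.3, 98.3 and 90.8 CPM in Hb and 85.6, 80.3 and 84.7 CPM in Hb+NTR1. Each group lay below the one before without overlap, and most of the difference from control was already there in Hb. The log2 fold change of Spp1 was -0.39 ± 0.065 with Hb and -0.17 ± 0.066 for added NTR1. The second call was lost for Spp1 with library totals as the scaling (-0.15), without Hb replicate 2 (-0.14), without Hb+NTR1 replicate 2 (-0.14) or 3 (-0.18), and without both control replicate 1 and Hb replicate 2 (-0.14).

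Fibronectin forms the fibrils on which much of the matrix is laid down, and fibrillin 1 forms the microfibrils of elastic tissue that hold latent TGF-beta. Fn1 (chr1:71585520-71653200, minus strand) had 2748, 2471 and 2447 CPM in control, 2294, 1523 and 2200.1 CPM in Hb and 399, 401 and 416 CPM in Hb+NTR1. All Hb libraries lay under all control libraries, but Hb replicate 2 was far below the other Hb libraries. For Fn1 the log2 fold change with Hb was -0.35 ± 0.11 and did not pass. Without Hb replicate 2 the value was smaller, -0.19, and passed, as it did with no filter on low counts (-0.36) and with replicate number as a block (-0.36). With control replicate 1 and Hb replicate 2 both removed the Fn1 value was -0.13 and did not pass. With NTR1 added Fn1 fell 4.95-fold (-2.31 ± 0.12). Fbn1 (chr2:125300594-125507993, minus strand) had 308, 301 and 302 CPM in control, 248, 191 and 238 CPM in Hb and 175, 162 and 172 CPM in Hb+NTR1. Again Hb replicate 2 was the lowest of its group, and no groups overlapped. Fbn1 was called lower in both steps, by a log2 of -0.43 ± 0.075 with Hb and -0.41 ± 0.076 for added NTR1. How the fall divided between the steps depended on single libraries, with -0.32 and -0.52 without Hb replicate 2 and -0.50 and -0.34 without Hb replicate 1 for Fbn1.

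Single libraries were the extreme of their group for several of the genes at once. In control, replicate 1 was the highest library for 7 of the 10 (Thbs1, Thbs3, Tnc, Postn, Fstl1, Fn1 and Fbn1), and it was the highest for 33.6% of all tested genes. Hb replicate 1 was the highest of its group for 6 of the 10 and for 33.0% of all tested genes. Hb+NTR1 replicate 3 was likewise the highest for 6 of the 10 and for 34.5% of all tested genes. In Hb, replicate 2 was the lowest for 6 of the 10 (Thbs1, Thbs2, Tnc, Postn, Fn1 and Fbn1), and it was the lowest for 37.1% of all tested genes. Its distances from the group mean were -0.36 for Tnc, -0.39 for Postn, -0.40 for Fn1 and -0.24 for Fbn1 on the log2 scale, where Sparc was at -0.0027 and Fstl1 at -0.0054. Hb replicate 2 also stood apart over all genes, where the chi-square of its counts divided by the degrees of freedom came to 13.2 and 11.04 with the other 2 Hb libraries, beside 2.53 to 5.19 for the rest of the within-group pairs. With control replicate 1 and Hb replicate 2 both removed, 7 of the 10 genes were called lower in Hb against control. Of all 14116 genes then tested, 7.20% were called and 3.71% were called lower.

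**Figure D5:**
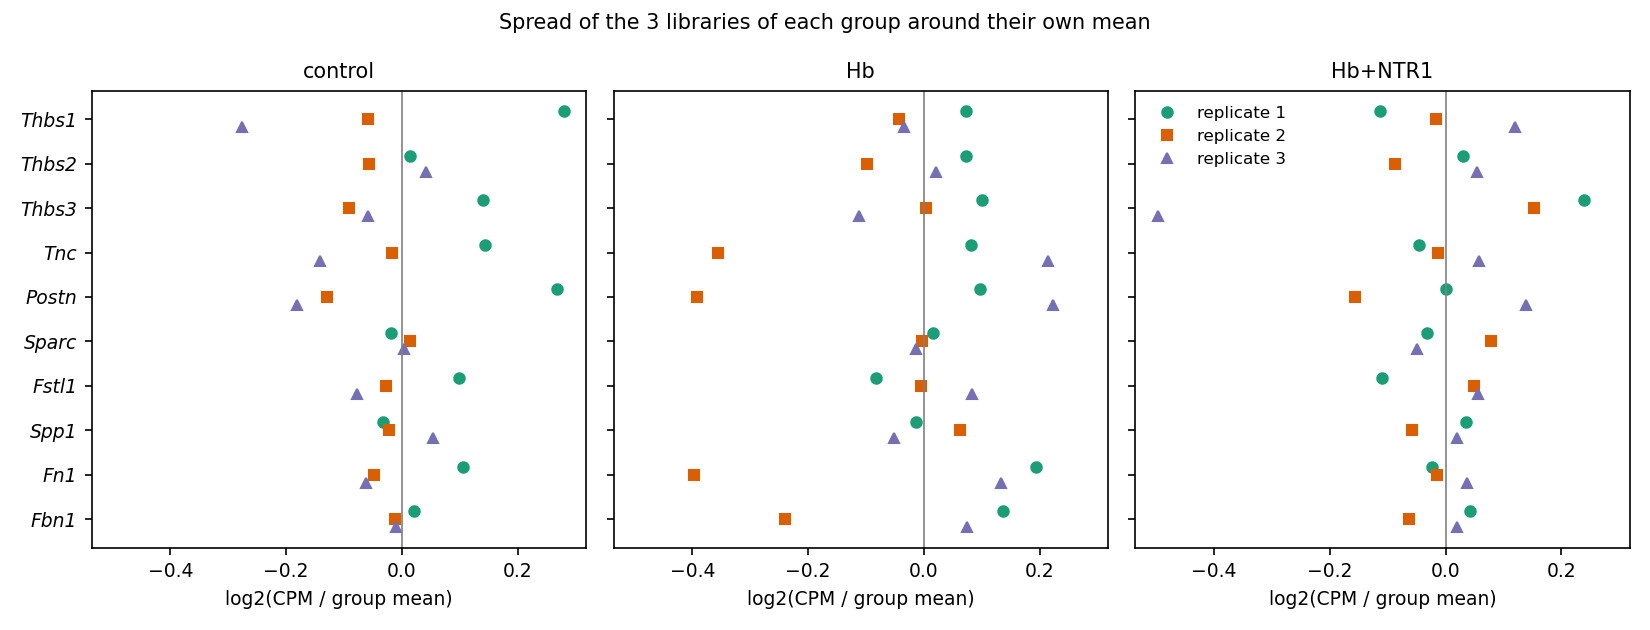
Distance of each library from the mean of its own group (log2 of CPM over the group mean) for the 10 genes in control, Hb and Hb+NTR1, with a symbol for each replicate. Control replicate 1 lies to the right for Thbs1 and Postn, and Hb replicate 2 lies to the left for Tnc, Postn, Fn1 and Fbn1. Hb+NTR1 replicate 3 lies to the left for Thbs3.

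Relatives of these genes were counted, from lists drawn up with earlier results known, in the fit across all genes, and adjusted p-values in the following come from edgeR with Benjamini-Hochberg adjustment. Beside every list below, 1.88% of all tested genes were called higher and 1.77% lower with Hb. With added NTR1 these shares were 30.7% and 31.6%, and in Hb+NTR1 against control 31.4% and 32.2%. Nothing is read from the list counts. Of 6 CCN genes, which encode matricellular proteins that bind integrins, 5 were tested. With Hb 0 rose and 3 fell, with added NTR1 2 rose and 1 fell, and against control Hb+NTR1 had 2 higher and 2 lower. Cyr61 had 369 ± 31.8 CPM in control, 251 ± 38.9 CPM in Hb and 796 ± 44.7 CPM in Hb+NTR1 (edgeR adjusted p = 0.000317 for Hb and 1.83e-13 for added NTR1). Ctgf followed the same order, with 67.8 ± 2.82, 43.2 ± 6.001 and 135 ± 16.2 CPM. These 2 were lowest in Hb as Thbs1 and Fstl1 were, but went above control with NTR1. Wisp1 had 170.04 ± 5.70, 168 ± 10.01 and 61.4 ± 2.11 CPM, and Wisp2 2.72 ± 0.236, 0.808 ± 0.143 and 0.463 ± 0.0453 CPM.

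Of the other thrombospondins and tenascins, Thbs4 had no count in any library, Comp and Tnn were too low to be tested, and Tnr and Tnxb were tested. Neither was called with Hb. Tnr, the tenascin of brain matrix, had 5.58 ± 0.877 CPM in control, 4.87 ± 1.58 CPM in Hb and 0.301 ± 0.0409 CPM in Hb+NTR1, the last from 4 to 5 counts a library. Tnxb had 6.97 ± 0.356, 9.06 ± 2.44 and 11.7 ± 1.20 CPM and was higher in Hb+NTR1 than in control (edgeR adjusted p = 0.000335), while its call against Hb ended under 8 alternatives. Of 10 relatives of SPARC and follistatin-like 1, 5 were tested, and 0 were called with Hb, 1 higher and 2 lower with added NTR1 and 1 higher and 3 lower in Hb+NTR1 against control. Fstl3, an inhibitor of activins, had 9.48 ± 1.43 CPM in control, 9.99 ± 1.61 CPM in Hb and 4.15 ± 0.193 CPM in Hb+NTR1. Smoc1, a calcium-binding relative of SPARC, had 33.1 ± 4.14, 30.1 ± 2.80 and 25.6 ± 0.148 CPM in these groups. Its call lower than Hb (edgeR adjusted p = 0.0495) ended under 10 alternatives, with adjusted p from 0.05002 to 0.137, among them DESeq2 and each leaving-out of a library of either group other than Hb replicate 1. Sparcl1 had 2.14 ± 0.601 CPM in control and 0.602 ± 0.224 CPM in Hb+NTR1, and Spock2 0.196 ± 0.0563 and 1.71 ± 0.508 CPM. The 5 relatives of periostin and osteopontin (Tgfbi, Ibsp, Dmp1, Dspp and Mepe) did not pass the filter.

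Elastic fibre and microfibril genes, among which fibrillin 1 acts, had 14 of 23 members in the table tested. With Hb 0 rose and 3 fell, at a list median log2 of -0.18, and with added NTR1 3 rose and 10 fell, at a median of -1.45. Fbn2 had no count in any library. The fibulin genes Fbln2, Fbln5 and Efemp1 were those that fell with Hb, from 483 ± 30.4 to 324 ± 26.9 CPM for Fbln2 (edgeR adjusted p = 7.43e-06), from 57.4 ± 5.34 to 44.6 ± 5.17 CPM for Fbln5 and from 1064 ± 16.6 to 868 ± 58.3 CPM for Efemp1. The Fbln5 call ended without control replicate 2 or 3 or Hb replicate 3, with library totals and with only the 6 libraries compared, and that of Efemp1 without control replicate 2 (edgeR adjusted p = 0.0530), which left 1 of the 3 calls of this list. With NTR1 added Efemp1 fell to 181 ± 2.53 CPM. Likewise Adamtsl4, a fibrillin-binding protein, went from 41.3 ± 3.69 to 9.44 ± 1.83 CPM, and Ltbp4, which anchors latent TGF-beta, from 22.7 ± 6.32 to 5.75 ± 0.724 CPM. Mfap3, Ltbp1 and Ltbp3, named after their values were seen, were the 3 that rose with NTR1.

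With added NTR1, receptors of these proteins were called in both directions, as 30.7% (higher) and 31.6% (lower) of all tested genes were. Of 18 tested of 25, 1 rose and 2 fell with Hb (list median log2 -0.070), and 9 rose and 7 fell with added NTR1 (median 0.21). The calls with Hb became 3 higher and 2 lower with library totals as the scaling or with a replicate block, and 2 higher and 3 lower without Hb replicate 2. With Hb the integrin subunit Itgb5 fell from 66.6 ± 5.57 to 40.96 ± 2.31 CPM (edgeR adjusted p = 2.68e-06) and the syndecan Sdc4 from 62.4 ± 4.55 to 42.9 ± 2.22 CPM. Itgb8, whose integrin activates latent TGF-beta, rose from 5.71 ± 0.699 to 8.77 ± 0.863 CPM with Hb. This call ended without control replicate 1 or 2 or without Hb replicate 2 or 3. The Itgb8 call also ended with control replicate 1 and Hb replicate 2 both removed. With NTR1 added Itgb8 fell to 2.87 ± 0.348 CPM and Sdc1 from 85.6 ± 3.48 to 30.5 ± 2.32 CPM, and Itgb3 went from 0.238 ± 0.206 to 1.18 ± 0.261 CPM. Lrp1, an endocytic receptor that clears thrombospondins, had 636 ± 23.1 CPM in control and 209.6 ± 11.1 CPM in Hb+NTR1. Chosen after their values were seen, the fibronectin and osteopontin receptor subunit Itgav rose from 245 ± 15.5 to 457 ± 27.7 CPM with added NTR1 and the thrombospondin receptor Cd47 from 92.03 ± 8.75 to 132 ± 2.64 CPM. Others of this list, named in the same way, did not rise. Itga5 went from 145 ± 11.3 to 144 ± 2.56 CPM and was not called. Calr fell from 1001 ± 68.7 to 751 ± 17.8 CPM and Cacna2d1 from 23.9 ± 3.16 to 14.3 ± 0.811 CPM. The thrombospondin receptor Cd36, also chosen after its values were seen, did not pass the filter and was not tested. It had no count in control or Hb libraries and a mean of 0.763 CPM in Hb+NTR1.

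Of 19 symbols for enzymes and other proteins that modify or cleave these proteins, or regulate that, 18 were in the table and 13 were tested, of which 1 rose and 2 fell with Hb and 4 rose and 7 fell with added NTR1. Adamts1, a protease of proteoglycans and thrombospondins, fell from 270.2 ± 16.1 to 174 ± 10.1 CPM with Hb (edgeR adjusted p = 8.04e-07) and to 54.97 ± 1.20 CPM with NTR1. Plau, the urokinase gene, fell from 12.4 ± 1.252 to 7.17 ± 1.07 CPM with Hb. The protease Htra1 rose from 7.69 ± 0.739 to 11.99 ± 1.30 CPM, and its call ended without control replicate 1 or 2. The Htra1 call also ended with control replicate 1 and Hb replicate 2 both removed. Plat, the tissue plasminogen activator, rose from 24.1 ± 1.95 to 72.9 ± 1.33 CPM with added NTR1, and Mmp9 fell from 1.11 ± 0.252 to 0.278 ± 0.184 CPM.

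The genes whose log2 levels relative to control lay nearest to those of 3 members over all 9 libraries were found by root mean square distance among all other tested genes. For Thbs1 the nearest were Gm10180, Zcchc18, Ccl28, Gm26825 and Rpl32l, at distances of 0.36 to 0.54, and each was far less abundant, at 0.960 to 6.43 CPM in control. None of these 5 was abundant. Gm10180 and Zcchc18 had their lowest mean in Hb, as Thbs1 did. From Hb to Hb+NTR1 the means of the others went down, from 0.567 to 0.509 CPM for Ccl28, 0.567 to 0.394 CPM for Gm26825 and 3.29 to 2.59 CPM for Rpl32l. Sparc had close matches, Nrg1, Palld, Emp3, Col5a2 and Tsc22d3, at distances of 0.056 to 0.10, with Col5a2, a fibrillar collagen chain, at 809 ± 23.2, 647 ± 5.96 and 236 ± 12.2 CPM in control, Hb and Hb+NTR1. Spp1 lay nearest to Gm29100, Kctd10, Zdhhc4, Lbh and Ehd2, at 0.073 to 0.082. These distances describe likeness over 9 libraries in 3 groups.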

How the data were processed

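Messenger RNA was selected by poly(A) and libraries were made with a NEBNext Ultra II kit, per the labels' protocols. HISAT2 2.1.0, HTSeq 0.10.0, bcl2fastq 2.19.1.403 and GRCm38 are named in the submitters' processing notes. Raw counts by gene symbol make up the deposited count table of 9 libraries, and 98 exact repeats among its 54232 entries were removed. Columns beginning in N were taken as Hb+NTR1 because the deposited table of the authors for that group against control holds N and C columns. That table holds log2 fold changes and p-values of the authors, by a test not given in the sources used here.

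The count analysis used edgeR 4.0.16 under R 4.3.3, that is filterByExpr with a minimum count of 10, TMM scaling and 1 robust quasi-likelihood fit of 9 libraries with a term for group. The SE is the size of the log2 fold change over the square root of F. The fit was checked on simulated counts with few genes changed, unlike the comparisons with Hb+NTR1, in which most genes were called. Alternatives were DESeq2 1.42.0 and its size factors, library totals, other filters, 6 libraries, a replicate block and each library left out. Gene positions and exon lengths came from GENCODE M21, promoters from RefSeq (GRCm38.p6). The list symbols Adamtsl6 and B3galtl were not in the table, and CCN genes were found under their older symbols.

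The 10 genes, the lists and the naming rule were chosen with earlier results of these data known. Genes named from a list were the 3 called with the largest change and a mean of 1 CPM or more in the group where it was higher. The text says where others were named after their values were seen. Genes that did not pass the filter, such as Cd36, Fbn2 and Thbs4, were named outside this rule. Removal of both control replicate 1 and Hb replicate 2 was added after the data had been seen. Protein sequences were not used here.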

Additional observations from a re-analysis of the deposited data

How the results depend on the processing

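In Hb against control the 504 genes called became 285 to 1125 with 1 library left out, the highest without Hb replicate 2, and 1016 with control replicate 1 and Hb replicate 2 both removed. The number of the 10 genes called stayed within 6 to 8 there, within 8 to 10 in Hb+NTR1 against Hb and at 9 in Hb+NTR1 against control over all settings tried. Over the same settings 2 to 7.9% of all tested genes were called in Hb against control. The share was 30.8 to 64.9% in Hb+NTR1 against Hb and 31.6 to 69.1% in Hb+NTR1 against control. Counted over the 10 genes and 14 alternatives, Hb against control had 94 calls kept, 4 lost and 3 gained, with 39 values not called in either fit. Hb+NTR1 against Hb had 125 calls kept and 15 lost, and Hb+NTR1 against control had 126 kept, with the 14 of Fstl1 not called in either fit. The lost calls were those of Sparc, Thbs2 and Spp1, the gained those of Fn1, and the cause was not tested. No called value changed sign under an alternative. Library totals in place of TMM moved the median log2 fold change of all genes by at most 0.063. Same-numbered libraries did not deviate together, with correlations of -0.049 to 0.095, so the numbers were not taken as pairs. With a replicate block 645 genes and 8 of the 10 were called in Hb against control. Genes at a few counts, such as Postn and Tnr in Hb+NTR1, are limited by depth, where 0 counts allow up to 0.178 to 0.224 CPM (3 counts, counting error only).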
